A study of Mus musculus with 4 samples.

Results

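The genes described here build and regulate the neuronal cytoskeleton: tubulins, proteins that bind microtubules, actins, neurofilament subunits and proteins of the growth cone. They were taken as a list of 51 gene symbols in 11 roles, grouped by function, and all 51 were among the 18854 genes in the table. RNA sequencing of wild-type mouse cortical neurons, kept for 15 days in vitro, compared neurons exposed for 2 days to the p53 activator Nutlin-3 (n = 2 libraries) with neurons whose samples are titled DMSO (n = 2 libraries). Nutlin-3 frees p53 from its inhibitor Mdm2, and DMSO is the usual solvent. For the DMSO samples the treatment label reads as untreated, and grouping followed the titles. No label tells whether replicates were separate cultures, so p-values reflect the spread among these 4 libraries alone, and that spread may be technical.

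Microtubules are hollow polymers of alpha and beta tubulin dimers that fill axons and dendrites, carry cargo and grow or shrink at their ends. Neurofilaments set the calibre of axons, and the growth cone at the axon tip moves by actin assembly. Many of these genes are used both to build neurites during development and to regrow axons after injury, and in rodent neurons p53 has been linked to neurite outgrowth through Coro1b, Rab13 and Gap43.

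The libraries held 19065197 and 17716272 reads with the p53 activator and 14584247 and 14968028 reads with DMSO. RNAs of the mitochondrial genome made up 8.97% and 9.99% of reads in the p53 activator libraries and 15.6% and 14.3% in the DMSO libraries, and nuclear protein-coding genes took 83.1% and 82.6% with the activator and 73.4% and 75.8% with DMSO. Levels are given in CPM, in which each library is scaled to a common total of reads. Calls were also made after scaling nuclear protein-coding genes to their own total, called the coding scale below, which moved the median of genes by -0.15 (log2). Neuron markers were abundant, with a summed level of 4984 and 5027 CPM with the activator and 4055 and 4410 CPM with DMSO. Of 10 neuron markers 8 rose and Rbfox3 fell, and on the coding scale 5 rose and 2 fell. From CPM 21.2% of nuclear protein-coding genes were called higher, and 52.5% of those with a mean of at least 100 CPM. On the coding scale these shares were 4.34% and 16.8%. Astrocyte markers summed to 2759 and 2731 CPM with the activator and 2409 and 2369 CPM with DMSO, and 1 of 9, the glutamate transporter gene Slc1a2, rose, while 0 of 9 were called on the coding scale or by edgeR. Oligodendrocyte lineage markers summed to 202 and 201 CPM with the activator and 183 and 179 CPM with DMSO, with no call by limma among 7 (3 at an unadjusted p under 0.05, and 0 by edgeR). Microglia markers summed to 3.67 and 2.88 CPM with the activator and 4.53 and 4.34 CPM with DMSO, vascular and fibroblast markers to 19.2 and 21.7 CPM with the activator and 22.0 and 20.3 CPM with DMSO, and progenitor and cycling markers to 137 and 141 CPM with the activator and 159 and 151 CPM with DMSO. From CPM, 1 of 5 tested vascular and fibroblast markers was called, Kdr, which reached the 1 CPM filter through the activator libraries alone and was called neither on the coding scale nor by edgeR. No microglia or progenitor and cycling marker was called from CPM (1 of 2 and 2 of 9 at an unadjusted p under 0.05 in limma). On the coding scale 1 of 2 microglia markers and 4 of 9 progenitor and cycling markers fell, and by edgeR 0 and 2 did. The part of these shifts in the results below was not tested, and in bulk RNA a change in the number of cells of a type and a change in RNA per cell cannot be told apart.

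Most of the list was modestly higher with the p53 activator. Of the 50 members tested, 30 rose, 1 fell (Dclk2) and 19 did not pass the test, by limma on log2(CPM + 1) with calls at a Benjamini-Hochberg adjusted p under 0.05. Values after ± are limma's moderated SE of a log2 fold change, with 2 libraries per group. With 2 residual and 98.0 prior degrees of freedom, this SE and the p-values rest mostly on the spread of other genes at the same level. Over all 16654 genes tested, 16.9% were called higher and 16.3% lower. Members are mostly abundant coding genes. Among nuclear protein-coding genes 21.2% were called higher and 7.19% lower, and among those with a mean of at least 100 CPM 52.5% were called higher and 5.56% lower. Counts by role below are to be read against these shares. Of the 38 members at that level 27 rose, or 71.1%, and of the 12 tested members under it 3 rose. The 100 CPM limit was chosen with values known. The median log2 fold change was 0.27 over the members, 0.03 over all genes tested, 0.09 over coding genes and 0.20 over coding genes of at least 100 CPM. Both activator libraries lay above both DMSO libraries for 41 of the 50 members (82%), as they did for 36.6% of all genes tested, 45.2% of coding genes tested and 74.3% of coding genes of at least 100 CPM. Both lay below for 3 members, as they did for 30.9% of all genes tested and 19.8% of coding genes tested.

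On the coding scale 16 members rose and 4 fell, against 4.34% of coding genes called higher and 13% called lower (4.37% and 13.1% with the filter on low values applied after scaling, where Map1a was also called lower). All 16 were among the 38 members with a mean of at least 100 CPM, or 42.1% of these, and 3 of the 38 fell. Of coding genes at that level 16.8% were called higher and 12.7% lower on this scale. The 16 were 8 alpha and beta tubulins, Stmn2, Stmn3, Crmp1, Dpysl2, Actb, Actg1, Pfn2 and Nefl, and the 4 that fell were Map2, Map6, Map7 and Dclk2. On the CPM scale, 18 members rose without DMSO replicate 1, against 7.1% of all genes called higher and 8.52% lower. edgeR's quasi-likelihood test on the recovered reads called 22 of 51 members higher and Dclk2 lower, against 10.6% of genes higher and 16.1% lower, and Tuba1c, Stmn4, Map4, Dcx, Dclk1, Dpysl3, Dpysl5 and Cap2 lost their calls. Of the 38 members of at least 100 CPM edgeR called 20 higher (52.6%), against 34.0% of coding genes at that level. Quantile normalization called 24 members higher and Dclk2 lower, against 9.8% of genes higher and 11.6% lower. For this setting and without DMSO replicate 1, shares among coding genes of at least 100 CPM were not computed. Members are therefore not set against genes of like level there. Of the 24, 20 were also called from CPM, and the 4 others were Map1b (0.26, adjusted p = 0.00879), Map2, Tubg1 and Ecel1 (0.59, adjusted p = 0.0302). The calls of 14 members held without each library in turn, and 8 members (Tubb2a, Tubb3, Tubb4a, Tubb4b, Stmn2, Stmn3, Actg1 and Nefl) were called higher under all 16 other settings tried. In each library, all members together took 29.9 and 31.4 of 1000 nuclear coding reads with the activator and 28.3 and 30.2 with DMSO, and these ranges overlap.

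**Figure D1:**
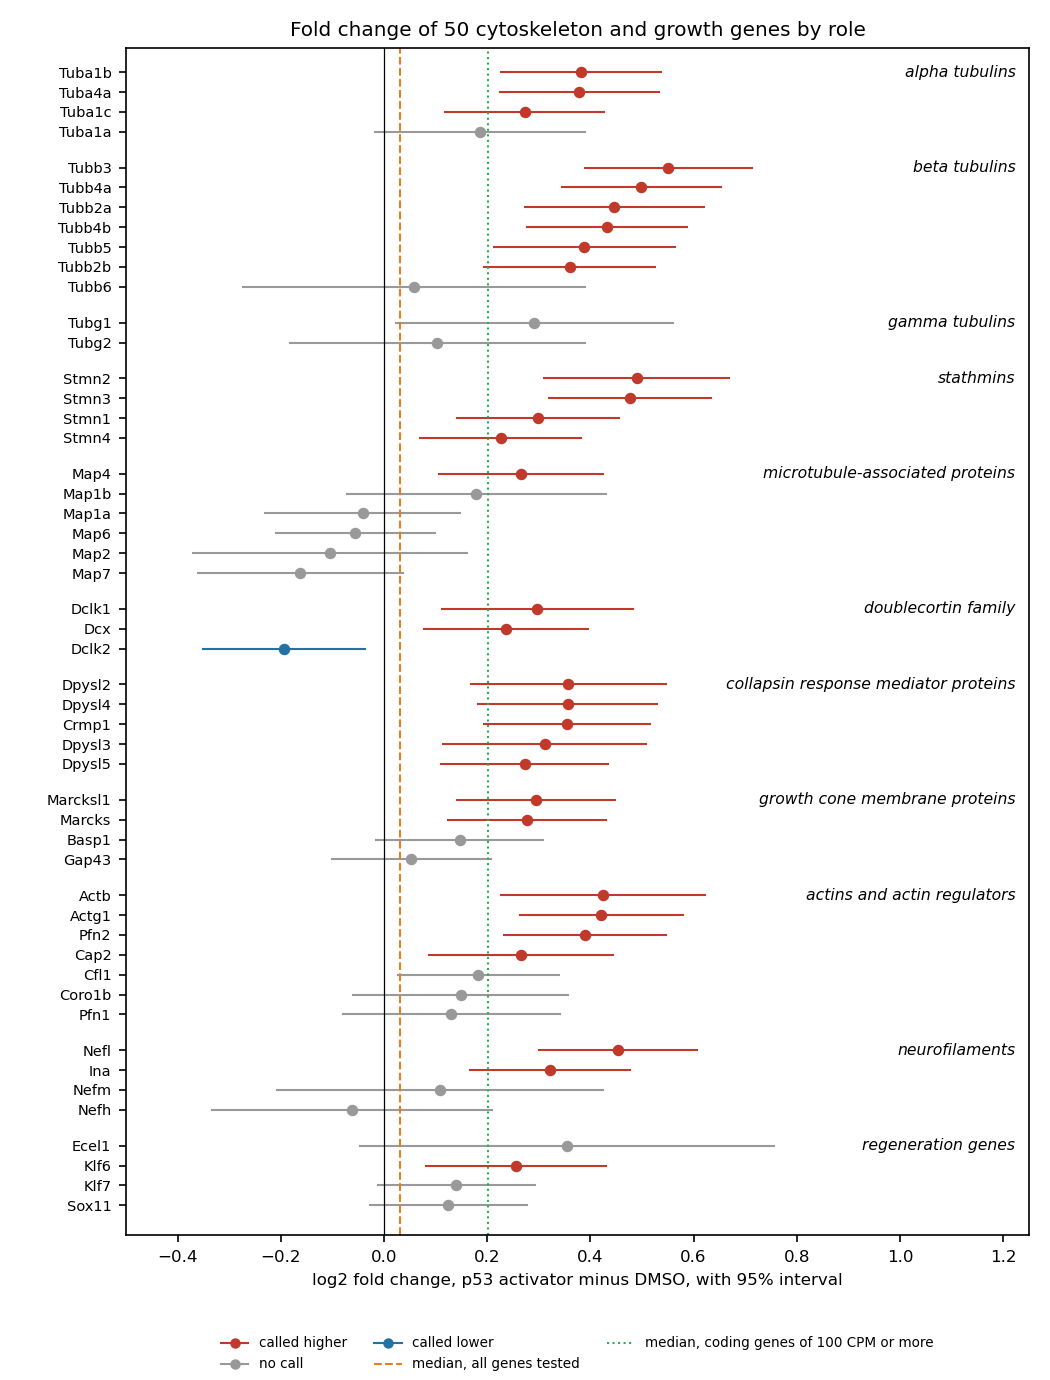
Log2 fold change (p53 activator minus DMSO, on log2(CPM + 1)) of the 50 tested members with limma's 95% interval, grouped by role, with dashed and dotted lines at the medians of all genes tested and of coding genes with a mean of at least 100 CPM. Tubulins, stathmins and collapsin response mediator proteins lie to the right of both medians in most cases, while the microtubule-associated proteins scatter around 0 and Dclk2 at -0.19 is the member called lower.

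Beta tubulins were the role with the highest median log2 fold change, at 0.43, and 6 of 7 rose on both ways of scaling. Tubb3, the isotype specific to neurons, had 519 and 551 CPM in the p53 activator libraries, against 351 and 379 CPM in the DMSO libraries (log2 fold change 0.55 ± 0.08, adjusted p = 3.83e-08). Its activator libraries were both far above its DMSO libraries, and this was the largest fold change among the 50 members tested by limma. Tubb4a, an isotype of brain, had 175 and 198 CPM in the p53 activator libraries, against 129.9 and 134 CPM in the DMSO libraries (log2 fold change 0.50 ± 0.08, adjusted p = 1.8e-07). Tubb2a, a major isotype of neurons, had 798 and 865 CPM in the p53 activator libraries, against 589.7 and 630.5 CPM in the DMSO libraries (log2 fold change 0.45 ± 0.09, adjusted p = 2.87e-05). In neither gene did the groups overlap. Tubb4b, which is found in most tissues, had 135 and 137 CPM in the p53 activator libraries, against 97.8 and 103 CPM in the DMSO libraries (log2 fold change 0.43 ± 0.08, adjusted p = 5.79e-06). Tubb5 had 821 and 889 CPM in the p53 activator libraries, against 626 and 680.0 CPM in the DMSO libraries (log2 fold change 0.39 ± 0.09, adjusted p = 0.000305). Tubb2b, a developmental isotype that is mutated in human cortical malformations, had 539 and 593 CPM in the p53 activator libraries, against 419 and 462 CPM in the DMSO libraries (log2 fold change 0.36 ± 0.08, adjusted p = 0.000385). All 3 genes were separated by group, and the call of Tubb2b was lost without p53 activator replicate 2. Tubb6, a minor isotype, had a log2 fold change of 0.06 (adjusted p = 0.817), which was -0.07 on the coding scale.

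Of the 4 alpha tubulins 3 rose, with a median log2 fold change of 0.33. Tuba1b had 167 and 183 CPM in the p53 activator libraries, against 125 and 143 CPM in the DMSO libraries (log2 fold change 0.38 ± 0.08, adjusted p = 6.69e-05). Tuba4a, whose coding sequence is the one that lacks the final tyrosine, had 171 and 161 CPM in the p53 activator libraries, against 123 and 132 CPM in the DMSO libraries (log2 fold change 0.38 ± 0.08, adjusted p = 6.04e-05). Tuba1c had 248 and 255 CPM in the p53 activator libraries, against 196 and 222 CPM in the DMSO libraries (log2 fold change 0.27 ± 0.08, adjusted p = 0.00408). Both activator libraries were above both DMSO libraries in all 3, but the call of Tuba1c was lost without p53 activator replicate 2, without DMSO replicate 1 and on the coding scale. Tuba1a, the main alpha tubulin of developing neurons, did not pass the test, with 1505 and 1656 CPM in the p53 activator libraries, against 1333 and 1445 CPM in the DMSO libraries (log2 fold change 0.19 ± 0.10, adjusted p = 0.156). Of the gamma tubulins, which seed new microtubules, neither passed, with log2 fold changes of 0.29 for Tubg1 (adjusted p = 0.0865) and 0.10 for Tubg2 (adjusted p = 0.618). On the coding scale Tubg2 was at -0.03, while with quantile normalization Tubg1 was called higher.

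Cells also set tubulin mRNA by autoregulation: free tubulin triggers decay of tubulin mRNAs being translated, through recognition of the first residues of the new chain by Ttc5. The coding starts are shown because those first residues are what Ttc5 reads. They are the first 24 coding bases, 5′ to 3′, from GENCODE vM21 (GRCm38), with the first 12, which encode the recognised residues, in capitals.
Tuba1a: ATGCGTGAGTGCatctccatccat
Tuba1b: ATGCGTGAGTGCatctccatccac
Tuba4a: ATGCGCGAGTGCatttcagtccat
Tubb2a: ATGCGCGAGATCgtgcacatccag
Tubb3: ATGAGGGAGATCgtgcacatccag
Tubb4a: ATGCGGGAAATCgtgcacctgcaa
Tubb5: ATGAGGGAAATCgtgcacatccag
Tubg1: ATGCCGAGAGAAatcatcacccta
All 7 alpha and beta tubulins shown begin with Met-Arg-Glu followed by Cys or Ile, in differing codons, and Tubg1 does not. Ttc5 itself had 33.9 and 29.0 CPM in the p53 activator libraries, against 27.9 and 29.9 CPM in the DMSO libraries (log2 fold change 0.11 ± 0.10, adjusted p = 0.41), and its activator and DMSO libraries overlap. Of the 4 factors listed as acting with Ttc5, 1 was called: Cnot1, the scaffold of the deadenylase complex, rose (log2 fold change 0.27, adjusted p = 0.00368), and the call was lost without p53 activator replicate 2 or DMSO replicate 1, on the coding scale and with quantile normalization. In this list, which includes Ttc5, 1 gene was called lower on the coding scale.

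Isotypes of a class are near copies of each other, so reads may be split between them in ways the counting does not reveal. Coding sequences were 84.8% to 98.3% identical among the alpha tubulins, 80.2% to 96.5% among the beta tubulins and 93.3% between the gamma tubulins. Levels per kb of merged exons allow isotypes to be ranked. Among alpha tubulins Tuba1a made up 77.4% and 78.4% of the class with the activator and 79.9% and 79.3% with DMSO. In the beta class Tubb2a led in both groups, with 35.4% and 35.5% with the activator and 35.5% and 35.2% with DMSO. Tubb3 made up 19.8% and 19.5% with the activator and 18.2% and 18.2% with DMSO. The Tubb3 shares do not overlap between groups, but 2 libraries against 2 cannot give an exact two-sided permutation p below 0.333. Levels of Tubb5, Tubb3 and Tubb2b lay close together with DMSO. They were 188.12, 188.08 and 182.87 CPM per kb in DMSO 1 and 204.38, 202.68 and 201.42 in DMSO 2. The order was the same in both libraries but by small margins, so it is not firmly set there.

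**Figure D2:**
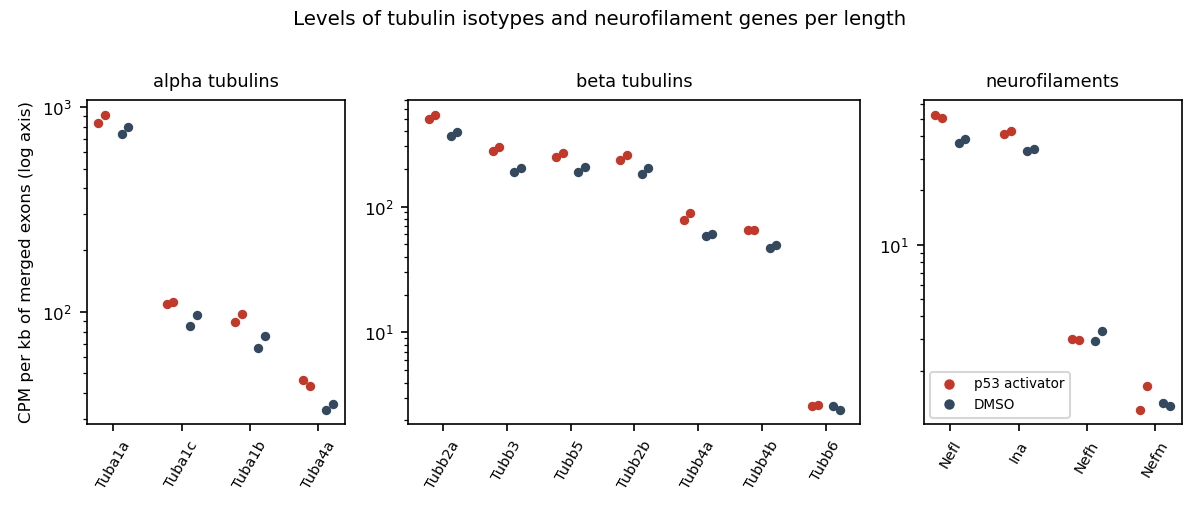
Level of each tubulin isotype and neurofilament gene in CPM per kb of merged exons (log axis), 1 point per library, with p53 activator libraries left of DMSO libraries. Tuba1a and Tubb2a lead their classes in both groups, Tubb6 lies far below the other beta tubulins, and Nefl and Ina stand well above Nefh and Nefm.

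Stathmins bind tubulin dimers and promote the shrinking of microtubules, and all 4 rose. Stmn2, an axonal stathmin needed for regrowth of axons, had 1008 and 1023 CPM in the p53 activator libraries, against 705 and 741 CPM in the DMSO libraries (log2 fold change 0.49 ± 0.09, adjusted p = 8.39e-06). Stmn3 had 405 and 381 CPM in the p53 activator libraries, against 272 and 292 CPM in the DMSO libraries (log2 fold change 0.48 ± 0.08, adjusted p = 8.19e-07). Stmn1, the general form, which p53 represses in other cell types, had 141 and 122 CPM in the p53 activator libraries, against 104 and 109 CPM in the DMSO libraries (log2 fold change 0.30 ± 0.08, adjusted p = 0.002). In these genes the activator libraries were the higher ones, without overlap. For Stmn1 the gap between the groups was smaller than the gap between the activator libraries. Stmn4 had 119.9 and 111 CPM in the p53 activator libraries, against 101 and 96.5 CPM in the DMSO libraries (log2 fold change 0.23 ± 0.08, adjusted p = 0.0195). Stmn2 and Stmn3 were also called on the coding scale, Stmn1 and Stmn4 not. The call of Stmn1 was lost without p53 activator replicate 1 or DMSO replicate 1, and that of Stmn4 without p53 activator replicate 1 or either DMSO library.

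Of the microtubule-associated proteins 1 of 6 rose and the median log2 fold change was -0.05. Map2, the classical dendrite protein, had 3564 and 3602 CPM in the p53 activator libraries, against 3605 and 4121 CPM in the DMSO libraries (log2 fold change -0.11 ± 0.13, adjusted p = 0.581). Map1b, which acts in growing axons, had 3044 and 3416 CPM in the p53 activator libraries, against 2650.2 and 3061 CPM in the DMSO libraries (log2 fold change 0.18 ± 0.13, adjusted p = 0.283), and Map1a, its adult counterpart, had 1045 and 1096 CPM in the p53 activator libraries, against 1031 and 1177 CPM in the DMSO libraries (log2 fold change -0.04 ± 0.10, adjusted p = 0.773). In Map1a and Map1b the groups overlap, and in Map2 both activator libraries were below both DMSO libraries, by a small margin. Map4, a form widely expressed outside neurons that p53 represses in other cell types, had 437 and 432 CPM in the p53 activator libraries, against 346 and 378 CPM in the DMSO libraries (log2 fold change 0.27 ± 0.08, adjusted p = 0.00687). Map4 was the member that rose, and its call was lost without p53 activator replicate 1 or 2, without DMSO replicate 1, with edgeR and on the coding scale. Map6, a stabiliser of microtubules, and Map7, which recruits kinesin-1, had log2 fold changes of -0.06 (adjusted p = 0.618) and -0.16 (adjusted p = 0.213). The direction for Map2 depends on scaling: on the coding scale Map2, Map6 and Map7 were called lower, while with quantile normalization Map2 was called higher at 0.24 (adjusted p = 0.0442). On the first of these scales Map1a passed the test when the filter on low values was applied after scaling (adjusted p = 0.0467) and not when the same genes as in the CPM fit were tested (adjusted p = 0.0505).

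Reads of 2 genes within a library can be compared without any scaling. For every 100 Map2 reads there were 14.6 and 15.3 Tubb3 reads with the activator and 9.75 and 9.19 with DMSO. Tubb2a gave 22.4 and 24.03 reads per 100 Map2 reads with the activator and 16.4 and 15.3 with DMSO. These pairs were picked after their values were seen, and the ratio shows unequal change between the genes and not which of them changed. MAP transcripts as a role took 10.02 and 10.6 of 1000 nuclear coding reads with the activator and 10.7 and 11.9 with DMSO, whereas beta tubulins took 3.60 and 3.92 with the activator and 3.02 and 3.16 with DMSO.

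**Figure D3:**
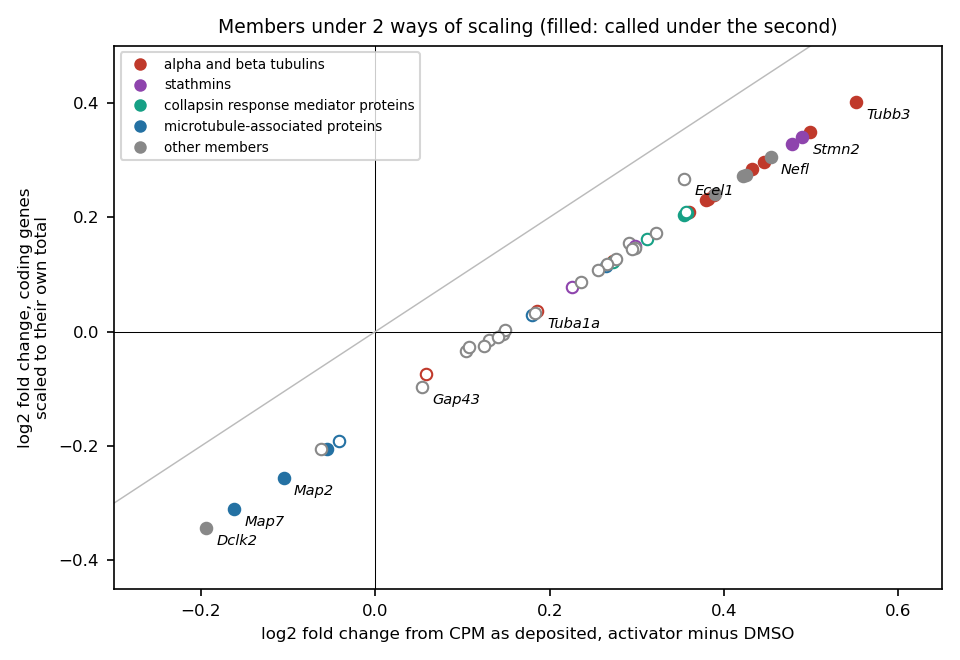
Log2 fold change of each tested member on the coding scale (y axis) against that from CPM as deposited (x axis), both p53 activator minus DMSO, with filled points called under the y axis scaling and a grey line of equality. All members lie below the line. Stathmins and the alpha and beta tubulins other than Tubb6 (-0.07 on the y axis) lie above 0 on both axes. Tuba1a and Stmn4 are close to 0 on the y axis, at 0.04 and 0.08. Map2, Map7 and Dclk2 are filled at the lower left.

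The doublecortin family, which bundles and stabilises microtubules in young neurons, was split. Dclk1, a kinase with doublecortin domains, had 1141 and 1120.5 CPM in the p53 activator libraries, against 882 and 959 CPM in the DMSO libraries (log2 fold change 0.30 ± 0.09, adjusted p = 0.0093). Dcx had 419 and 430.0 CPM in the p53 activator libraries, against 362 and 358 CPM in the DMSO libraries (log2 fold change 0.24 ± 0.08, adjusted p = 0.0157). Dclk2, the related kinase, had 96.2 and 98.0 CPM in the p53 activator libraries, against 115 and 108 CPM in the DMSO libraries (log2 fold change -0.19 ± 0.08, adjusted p = 0.0476). The activator libraries were above the DMSO libraries for Dclk1 and Dcx and below them for Dclk2. The calls of Dcx and Dclk2 were lost without any 1 of the 4 libraries, and that of Dclk1 without 3 of them, p53 activator replicate 1, p53 activator replicate 2 and DMSO replicate 1. Dclk2 was called on the coding scale and Dcx and Dclk1 were not.

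Collapsin response mediator proteins carry semaphorin signals to the cytoskeleton and bind tubulin dimers, and all 5 rose within a narrow range of log2 fold changes, 0.27 to 0.36. Crmp1 had 450.0 and 470.2 CPM in the p53 activator libraries, against 339.9 and 381 CPM in the DMSO libraries (log2 fold change 0.35 ± 0.08, adjusted p = 0.000327). Dpysl2, which promotes axon formation, had 1192 and 1227 CPM in the p53 activator libraries, against 885 and 1008 CPM in the DMSO libraries (log2 fold change 0.36 ± 0.10, adjusted p = 0.00202). Dpysl4, described as a p53 target in human cells, had 58.3 and 57.9 CPM in the p53 activator libraries, against 43.2 and 47.2 CPM in the DMSO libraries (log2 fold change 0.36 ± 0.09, adjusted p = 0.000852). No library of one group fell inside the other in these genes. Dpysl3 had 1382 and 1450.1 CPM in the p53 activator libraries, against 1058 and 1229 CPM in the DMSO libraries (log2 fold change 0.31 ± 0.10, adjusted p = 0.0103). Dpysl5 had 365 and 405 CPM in the p53 activator libraries, against 293 and 345 CPM in the DMSO libraries (log2 fold change 0.27 ± 0.08, adjusted p = 0.006). Both were separated by group, and in both the gap between the groups was smaller than the gap between the DMSO libraries. Crmp1 and Dpysl2 were also called on the coding scale. The call of Dpysl2 was lost without p53 activator replicate 2, that of Dpysl4 without DMSO replicate 1, that of Dpysl5 without either of these, and that of Dpysl3 without either of these or p53 activator replicate 1.

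Of the growth cone membrane proteins, which bind lipids and calmodulin and are substrates of protein kinase C, 2 of 4 rose. This share of 50% is near the 52.5% of coding genes of at least 100 CPM called higher. Gap43, the best known marker of growing axons, had 260.2 and 247 CPM in the p53 activator libraries, against 258 and 231 CPM in the DMSO libraries (log2 fold change 0.05 ± 0.08, adjusted p = 0.639). Its groups overlap, and its log2 fold change was -0.10 on the coding scale. Marcks had 222 and 238 CPM in the p53 activator libraries, against 183 and 196 CPM in the DMSO libraries (log2 fold change 0.28 ± 0.08, adjusted p = 0.00332). Marcksl1 had 189 and 186 CPM in the p53 activator libraries, against 148 and 158 CPM in the DMSO libraries (log2 fold change 0.29 ± 0.08, adjusted p = 0.00163). Both of these genes were separated by group, and neither was called on the coding scale or without DMSO replicate 1. The call of Marcks was also lost without p53 activator replicate 2. Basp1 had a log2 fold change of 0.15 (adjusted p = 0.161). For every 100 Gap43 reads there were 387 and 414 Stmn2 reads with the activator and 273 and 320 with DMSO, a pair also picked after its values were seen.

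Among actins and actin regulators 4 of 7 rose (57.1%), against 21.2% of coding genes and 52.5% of those of at least 100 CPM. Actb had 1478 and 1604 CPM in the p53 activator libraries, against 1113 and 1182 CPM in the DMSO libraries (log2 fold change 0.42 ± 0.10, adjusted p = 0.000459). Actg1, the other cytoplasmic actin, had 417 and 425 CPM in the p53 activator libraries, against 298 and 332 CPM in the DMSO libraries (log2 fold change 0.42 ± 0.08, adjusted p = 1.53e-05). Pfn2, the neuronal profilin that feeds actin monomers to growing filaments, had 377 and 336 CPM in the p53 activator libraries, against 273 and 270.2 CPM in the DMSO libraries (log2 fold change 0.39 ± 0.08, adjusted p = 5.24e-05). The activator libraries were the higher ones in all 3, and all 3 were also called on the coding scale. The call of Actb was lost without p53 activator replicate 2. Cap2, which recycles actin monomers, had 53.3 and 52.3 CPM in the p53 activator libraries, against 47.6 and 40.3 CPM in the DMSO libraries (log2 fold change 0.27 ± 0.09, adjusted p = 0.0163), and its call was lost without p53 activator replicate 1 or DMSO replicate 2 and on the coding scale. For Cap2 the gap between the groups was smaller than the gap between the DMSO libraries. Coro1b, a regulator of the Arp2/3 complex, had 27.9 and 26.2 CPM in the p53 activator libraries, against 24.8 and 23.9 CPM in the DMSO libraries (log2 fold change 0.15 ± 0.11, adjusted p = 0.287). Cfl1, the filament-severing cofilin, and Pfn1 had log2 fold changes of 0.18 (adjusted p = 0.0631) and 0.13 (adjusted p = 0.362). The groups of these 3 did not overlap, but the differences did not pass the test. Per 100 Cfl1 reads there were 421 and 476 Actb reads with the activator and 352 and 408 with DMSO, another pair picked with values seen.

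Neurofilament genes were also divided. Nefl, the light subunit on which the others assemble, had 178 and 169.6 CPM in the p53 activator libraries, against 123 and 129.9 CPM in the DMSO libraries (log2 fold change 0.45 ± 0.08, adjusted p = 1.56e-06). Ina, which encodes alpha-internexin, had 133 and 139 CPM in the p53 activator libraries, against 107 and 109.7 CPM in the DMSO libraries (log2 fold change 0.32 ± 0.08, adjusted p = 0.000671). Both rose without overlap between groups, and Nefl alone of the 2 was called on the coding scale. Nefm and Nefh, the medium and heavy subunits, were at low levels and gave log2 fold changes of 0.11 (adjusted p = 0.64) and -0.06 (adjusted p = 0.759). Their groups overlap. Per 100 Nefh reads there were 1495 and 1437 Nefl reads with the activator and 1053 and 987 with DMSO, again a pair picked with values seen.

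Of the 5 regeneration genes 4 were tested and 1 rose (25%), against 21.2% of coding genes and 52.5% of those of at least 100 CPM. Klf6, a factor that promotes axon growth in zebrafish and mouse, had 57.6 and 53.3 CPM in the p53 activator libraries, against 45.2 and 47.4 CPM in the DMSO libraries (log2 fold change 0.26 ± 0.09, adjusted p = 0.018). Its libraries were separated by group, and the call was lost without p53 activator replicate 1 or DMSO replicate 1 and on the coding scale. Sox11, Klf7 and Ecel1, an endopeptidase induced by nerve injury, had log2 fold changes of 0.12 (adjusted p = 0.209), 0.14 (adjusted p = 0.154) and 0.35 (adjusted p = 0.172). On the coding scale Sox11 and Klf7 were at -0.03 and -0.01. Rab13, a small GTPase of vesicle traffic, had 0.577 and 0.677 CPM in the p53 activator libraries, against 0.754 and 1.27 CPM in the DMSO libraries. These values rest on 11 and 12 reads with the activator and 11 and 19 with DMSO, and Rab13 was not tested because it was under 1 CPM in 3 of the 4 libraries.

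**Figure D4:**
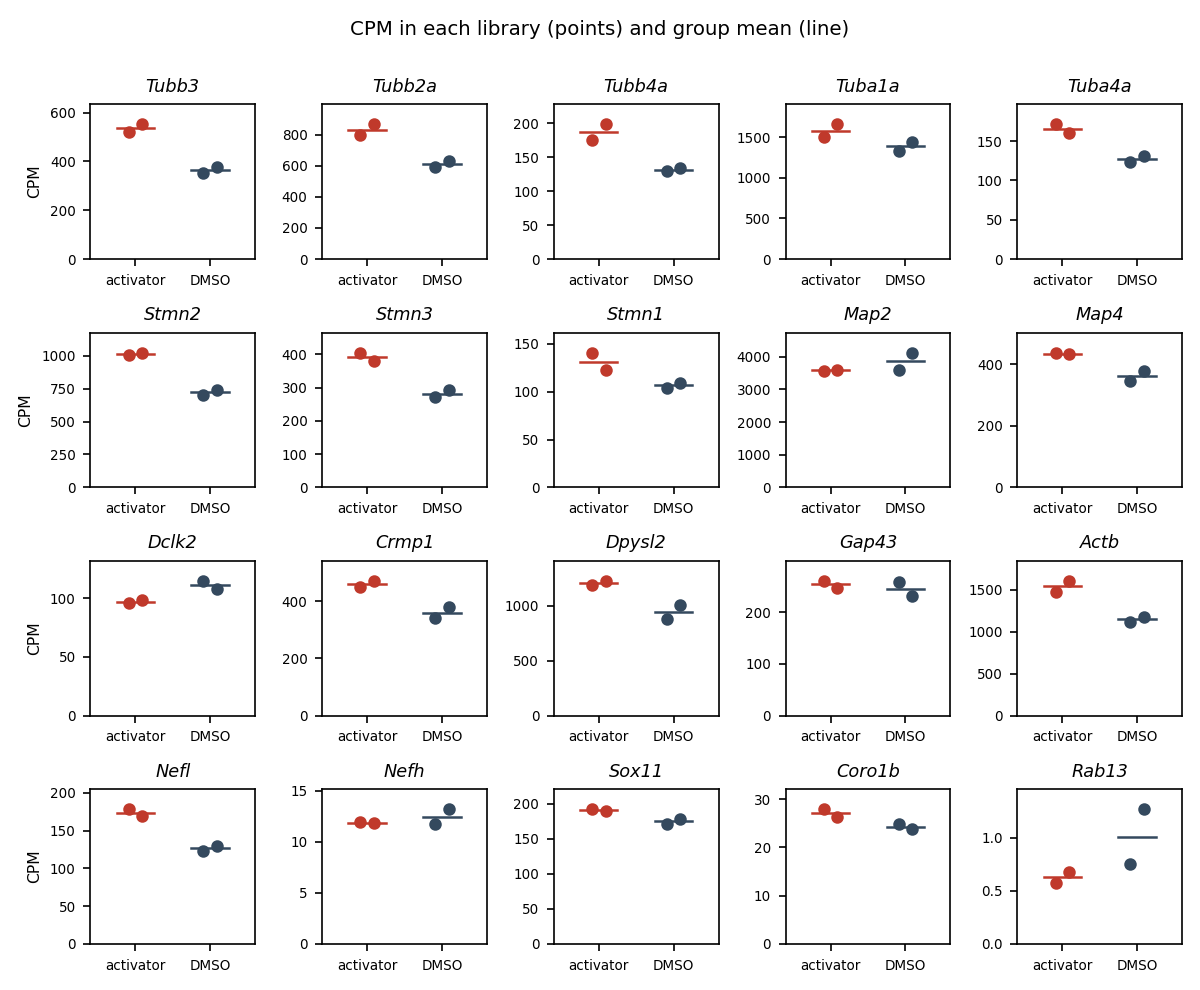
CPM in each library (points) and group mean (line) for 20 members, chosen with values known to include members that rose, fell and did not pass, with p53 activator left of DMSO and each axis starting at 0. Tubb3, Stmn2, Stmn3 and Nefl are separated by wide gaps, Dclk2 is lower with the activator, the points of Map2 nearly touch between groups, and Gap43 overlaps.

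Of 21 tubulin folding genes 7 rose and 0 fell, led by the chaperonin subunits Cct4 (log2 fold change 0.34, adjusted p = 0.00049), Cct6a (0.31, adjusted p = 0.000744) and Tcp1 (0.30, adjusted p = 0.00136). On the coding scale, which leaves out Cct6a because its annotation class is not protein coding, 0 rose and 1 fell. Of 19 genes of microtubule ends and severing 8 rose, led by the end-binding genes Mapre2 (0.38, adjusted p = 6.18e-05) and Mapre1 (0.36, adjusted p = 0.000124) and by the severing gene Spast (0.34, adjusted p = 0.000343), and 2 were called higher on the coding scale. Of 17 tubulin modifying enzymes 3 rose, among them the glutamylase subunit Ttll1 (0.44, adjusted p = 0.00054) and Ttll7 (0.26, adjusted p = 0.0064), and the glutamylase Ttll5 fell (-0.42, adjusted p = 0.000423). In this list 1 gene was higher and 1 lower on the coding scale, and 2 were higher and 1 lower by edgeR. Of 10 genes of the gamma tubulin ring complex Mzt1 rose (0.33, adjusted p = 0.00605) and Pcnt fell (-0.32, adjusted p = 0.0293), and the call of Pcnt was lost without any 1 library. Scaled to coding genes, 0 of these 10 rose and 3 fell.

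Of 37 genes of actin assembly 17 rose and 2 fell. The Arp2/3 subunits Arpc2 (0.45, adjusted p = 1.83e-06) and Arpc5 (0.42, adjusted p = 1.31e-05) and the Arp2/3 activator Wasf1 (0.41, adjusted p = 2.56e-05) led the rises. The actin-sequestering thymosin Tmsb10 (-0.44, adjusted p = 0.000478) and the cofilin phosphatase Ssh3 (-0.72, adjusted p = 0.000579) fell. The counts on the coding scale were 7 higher and 4 lower. Of 17 tested axon injury genes 3 rose, among them Klf9 (0.37, adjusted p = 8.28e-05), a repressor of axon growth, and Lin28b (-0.68, adjusted p = 5.89e-05) and Gpr151 (-0.76, adjusted p = 0.00234) fell. Of the axon injury genes 1 was higher and 2 were lower on the coding scale, and edgeR gave the same counts. None of 8 other intermediate filament genes, which include Vim, Gfap and Nes, passed the test from CPM in limma (0 of 8 at an unadjusted p under 0.05, and 0 by edgeR), and 1 of 8 fell on the coding scale. Calls were lost without 1 library for Tcp1 (DMSO replicate 1), Ttll7 (p53 activator replicate 1 or DMSO replicate 2), Mzt1 and Tmsb10 (p53 activator replicate 1 or DMSO replicate 1), Ssh3 (p53 activator replicate 2) and Gpr151 (p53 activator replicate 2 or DMSO replicate 2). From CPM, 16.9% of all genes tested were called higher and 16.3% lower, and 21.2% and 7.19% of nuclear protein-coding genes. Among those with a mean of at least 100 CPM these shares were 52.5% and 5.56%. On the coding scale 4.34% of coding genes were called higher and 13% lower. Of the lists, 33.3% of folding, 42.1% of end and severing and 45.9% of actin assembly genes rose from CPM. The share was 17.6% for modifying enzymes, 17.6% for axon injury genes and 10% for the ring complex, each under that of coding genes. Lists were not matched by level.

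Members differ widely in gene length, and fold change is given here against length. Across the 50 members the Spearman correlation of log2 fold change with the length of the gene from first to last exon was -0.44. It was -0.29 over 1921 other coding genes of at least 100 CPM and -0.09 over 12712 other coding genes. With the length of merged exons it was -0.36 over the members, -0.35 over the 1921 genes and -0.05 over the 12712. Genes within one set of libraries are not independent, so this is a description only, and the length classes below were set with values known. Of 26 members under 10 kb, which include most tubulins, 17 rose and 0 fell, and of 15 members of 50 to 200 kb 8 rose and 1 fell. Among other coding genes of at least 100 CPM, 61.6% of those under 10 kb were called higher and 65.5% of those of 10 to 50 kb. The share was 46.0% for those of 50 to 200 kb and 36.6% for those over 200 kb.

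**Figure D5:**
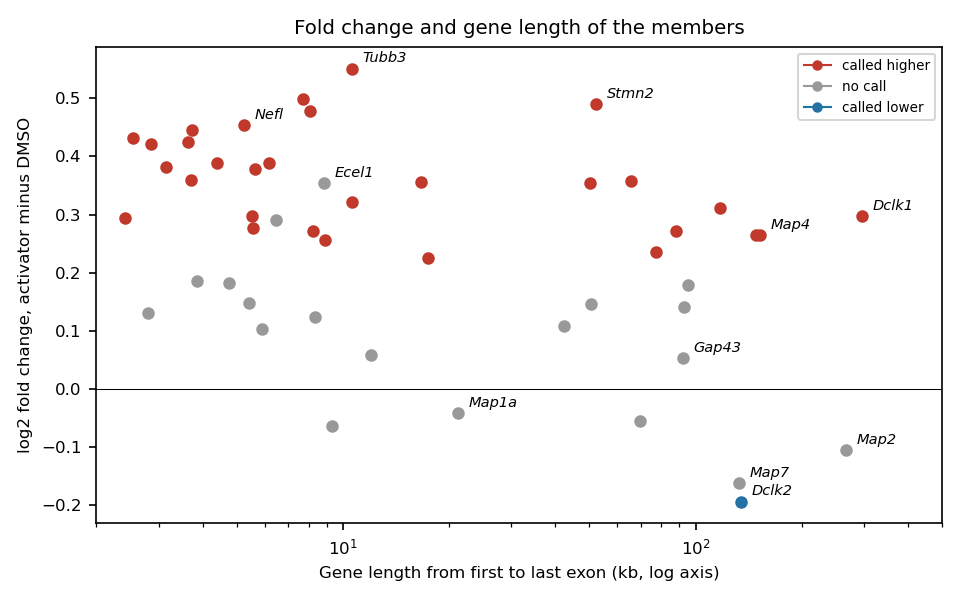
Log2 fold change (p53 activator minus DMSO) of the tested members against gene length from first to last exon in kb (log axis), coloured by call. Tubb3 and Nefl are short genes near the top, Map2 is a long gene under 0, and Stmn2 and Dclk1 are longer genes that rose.

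Promoters were searched because p53, the protein activated here, binds DNA. Of the 51 members 34 had promoters in the RefSeq table (GRCm38.p6), 39 in all, and 4 motifs were searched in the 250 bases before the start, listed here in full. The p53 motif searched was a single consensus decamer, not a pair: RRRCWWGYYY. There R is A or G, W is A or T, and Y is C or T. This decamer was present in 7 of 39 member promoters (17.9%), which belong to Actg1, Dcx, Rab13, Stmn3, Tuba1c and Tubb3, and in 7.13% of all 32851 promoters. No member promoter held more than 1 of it. GGGCGG, read on both strands, was present in 24 (61.5%) and in 32.7% of all. TATAAA, read on the gene's strand, was present in 4 (10.3%) and in 7.59% of all, and the palindrome TGACGTCA in 1 (2.56%) and in 1.55% of all. The pair of Dcx promoters overlap and share 1 decamer and 1 TATAAA, so each of these is counted for both. In the member promoters no match overlapped a match to a different motif. Matches to GGGCGG overlapped each other in some promoters, such as that of Dclk2, and were counted separately. Promoters of Tubb3, the tested member with the largest fold change, and of Tubb2a, the leading beta tubulin, are shown with matches to any of the 4 motifs in capitals. Tubb3 lies at chr8:123411303-123411552 on the plus strand and Tubb2a at chr13:34078009-34078258 on the minus strand.
Tubb3: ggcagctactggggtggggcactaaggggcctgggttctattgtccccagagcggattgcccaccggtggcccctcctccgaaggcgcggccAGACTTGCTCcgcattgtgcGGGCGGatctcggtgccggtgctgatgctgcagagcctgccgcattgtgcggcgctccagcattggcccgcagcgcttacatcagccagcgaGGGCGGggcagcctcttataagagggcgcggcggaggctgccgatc
Tubb2a: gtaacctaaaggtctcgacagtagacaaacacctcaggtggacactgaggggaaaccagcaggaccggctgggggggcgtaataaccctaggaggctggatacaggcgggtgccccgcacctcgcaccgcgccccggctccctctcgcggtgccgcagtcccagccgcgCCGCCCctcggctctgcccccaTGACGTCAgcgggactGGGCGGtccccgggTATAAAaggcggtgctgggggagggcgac
The Tubb3 promoter holds 1 decamer, which starts 158 bases before the start, and 2 matches to GGGCGG, and the Tubb2a promoter holds none of the decamer, 2 of GGGCGG, 1 of TATAAA and 1 of TGACGTCA. Both genes rose. A match is a run of letters and not evidence of binding. The promoters to print were chosen with fold changes known.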

How the data were processed

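Per the labels' protocols, TRIzol was used to extract total RNA and a kit removed ribosomal RNA. The submitters' processing notes name TopHat2, Cufflinks 2.0.0 and the build mm9, with no role for any. How reads were counted, with which annotation and whether by strand is not stated in those sources. The authors deposited 1 table of CPM per gene and library; the unit was read from the values, whose steps gave whole reads for 100% of values within 0.01 reads.

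From these, log2(CPM + 1) was tested with limma 3.58.1 (R 4.3.3), with empirical Bayes moderation that let the spread vary with expression and two-sided Benjamini-Hochberg adjustment over the 16654 genes that reached 1 CPM in 2 or more libraries. Fold changes of low genes are understated on this scale. The fit had 2 residual and 98.0 prior degrees of freedom, so the error of each gene is mostly that of genes at its level. Errors are limma's SE. Alternatives were pseudocounts of 0.1 and 0.5, no filter, a minimum of 5 CPM, quantile normalization, coding genes scaled to their own total, other variance models, a replicate block, leaving out each library, and edgeR 4.0.16 (1872 genes higher and 2846 lower of 17710) and DESeq2 1.42.0 on the recovered reads. Coding genes scaled to their own total were first filtered after scaling and then, after that result had been seen, restricted to the genes of the CPM fit; unless stated, values on that scale are from the second version.

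Gene classes and lengths came from GENCODE vM21, where 15860 of 18854 symbols had a unique match. That is not the build of the notes, so coordinates belong to the reference sequences only. Members and gene lists were chosen with earlier results of these data known. Values in every library are given for each member called and for Gap43, Coro1b, Rab13, Map4 and Stmn1, and in other lists the 3 called genes with the smallest p and any that fell are named; Tuba1a, Map1a, Map1b and Map2 were given in full in addition, after their values were seen. Replicates differed by more than sampling noise (chi-square per degree of freedom 5.16 with the activator and 4.52 with DMSO). At these depths precision is limited by having 2 libraries per group.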

Additional observations from a re-analysis of the deposited data

How the results depend on the processing

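The count of 30 members higher became 16 with coding genes scaled to their own total (filtered either way) and 9 without a trend of the spread; it ranged from 18 to 28 when 1 library was left out. The count of 1 lower became 0 with a pseudocount of 0.1, no filter, no trend, DESeq2 and each library left out, and 4 on the coding scale (5 with the filter after scaling). Over all genes, 2811 higher became 1632 with quantile normalization, 302 without trend, 1872 with edgeR and 1307 with DESeq2. Without 1 library it was 1140 to 2119. The 2721 lower became 1776 at a minimum of 5 CPM, 1508 with DESeq2 and 1367 to 2543 without 1 library. The coding scale tested 12762 nuclear coding genes. From CPM 2708 of these were called higher and 917 lower, and on the coding scale 554 higher and 1664 lower. With the filter after scaling, 570 and 1707 of 13039 genes were called. The causes were not tested, and fewer genes were tested on the coding scale and at 5 CPM.

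Members that changed sign were all uncalled on the CPM scale. On the coding scale, under both filters, they were Tubb6 (-0.074), Tubg2 (-0.034), Gap43 (-0.097), Basp1 (-0.0035), Pfn1 (-0.014), Nefm (-0.026), Sox11 (-0.025) and Klf7 (-0.0092), as was Ttc5 (-0.032). With quantile normalization they were Map2 (0.24), Gap43 (-0.083), Basp1 (-0.028), Nefh (0.0066) and Sox11 (-0.034). Leaving out 1 library gave ranges of -0.14 to 0.054 for Map1a, -0.12 to 0.013 for Map6, -0.026 to 0.13 for Gap43, -0.14 to 0.014 for Nefh (each reversed without DMSO replicate 2) and -0.084 to 0.30 for Nefm (without p53 activator replicate 2). Of the members' log2 fold changes under the alternatives, 648 kept direction and side of the threshold, 112 lost a call, 13 gained one and 26 changed sign.

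The groups share replicate numbers, but no label says that a number pairs samples. The differences between replicates 1 and 2 correlated at 0.12 across all genes tested between the groups, and at 0.26 across genes with a mean of at least 10 CPM. With the replicate number as a block, 32 members were higher, with Cfl1 (adjusted p = 0.0135) and Tubg1 (adjusted p = 0.0413) added, and 1 lower, and 3705 and 3132 of all genes.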
